A study of Mus musculus with 12 samples.

Results

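Long intergenic noncoding RNAs (lincRNAs) are transcripts from loci between protein-coding genes for which no protein product is annotated. The abundant lincRNAs of mouse dorsal root ganglia were selected on measured values: genes of the deposited table with the biotype lincRNA, not on chromosome X or Y, and with a mean of at least 3 CPM (a gene's count divided by the library's total count and scaled to 1000000) over 12 libraries. The rule chose 146 genes of the 4915 lincRNA genes outside X and Y, in a table of 54532 genes. The levels that chose them are given below as a description, while the comparison of the groups was not part of the rule.

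Dorsal root ganglia are the clusters of sensory neurons beside the spinal cord, with their glia and vessels. Total RNA of ganglia from C57BL/6 mice was sequenced in paired reads, in 6 control and 6 DAAO libraries with between 13227518 and 23884927 counts each. Mice of both groups received D-alanine. The control genotype is given as CDH5-Cre, that is, Cre recombinase driven by the promoter of the endothelial cadherin gene. The genotype of the other group is given as DAAO-TGCdh5. D-amino acid oxidase (DAAO) oxidises D-alanine and releases hydrogen peroxide. The genotype label of the DAAO group does not name Cre, which stands only in the sample names, and no age or sex of the mice is named in the labels. Whether each library is a different animal is not stated, so p-values measure the spread between these samples, which may be technical.

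Some libraries stood apart. Among the members, control 2 had the lowest level of all libraries for 37 genes and control 6 the highest for 32. In 5 libraries (control 1, control 2, DAAO 1, DAAO 2 and DAAO 6) Xist, which females express, and Y-linked transcripts both exceeded 10 CPM. Leaving out these 5 libraries, which leaves 4 control and 3 DAAO libraries, changed the sign of the log2 fold change in 10 of 46 named members and moved it by more than 1.5 times with the same sign in 21. Values without these libraries, called those of the 7-library fit, stand beside only some of the results. Neurons, the cells the tissue is named for, were well represented: the summed level of 15 pan-neuronal markers was 13639 to 20179 CPM in controls and 11434 to 18557 CPM in DAAO libraries.

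lincRNAs act in several known ways. Some build nuclear bodies, some bind RNA-binding proteins or microRNAs in the cytoplasm, and others serve as the primary transcript from which microRNAs or small nucleolar RNAs (snoRNAs) are cut. Many are transcribed next to a gene of a developmental regulator, and their expression is often more restricted to a tissue or cell type than that of coding genes. In neurons, Malat1, Meg3 and Miat are among the most abundant noncoding transcripts.

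The 146 members lay on 19 chromosomes, and 142 had the same position in GENCODE M21. Of them 61 carried a Gm name, 46 a Rik name and 9 a clone name that starts with AC. The median number of exons in the member's largest transcript was 3, the most was 17, and 21 members had a single exon. RefSeq held 97 of them and listed 88 as long noncoding RNA, 7 as protein coding and 2 as another type. The coding entries included 3 of the 10 members with the highest level, 6330403K07Rik, Tmem250-ps and 1810058I24Rik. The lincRNA label of the table is therefore not shared by both annotations for these genes. The level reached 100 CPM in 8 members and lay between 10 and 100 CPM in 44 and between 3 and 10 CPM in 94. Just inside the threshold were Gm47134 at 3.03 CPM, 1700096K18Rik at 3.05 CPM and Gm39469 at 3.05 CPM, and just outside were Gm6712 at 2.98 CPM, 1700040D17Rik at 2.98 CPM and Gm32618 at 2.96 CPM.

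A few genes made up much of the members' signal. Malat1, Meg3, 2900097C17Rik and Neat1, the top 4, held 46.1% to 63.6% of the members' counts in controls and 53.5% to 69.0% in DAAO libraries. All members together took 0.518% ± 0.118 of the counts in controls and 0.598% ± 0.108 in DAAO libraries (SD, n = 6 each), and the groups overlapped. Per kilobase of gene length, Malat1 led with a mean level of 207 CPM per kilobase. It was followed by 2900097C17Rik at 140, Gm10076 at 101, 6330403K07Rik at 78.5 and Meg3 at 49.99 CPM per kilobase. The mean of Gm10076 was raised by DAAO 5 at 219 CPM, where the nearest other DAAO library was at 40.5 CPM. Neat1, whose gene is 20771 bases long, had 17.97 CPM per kilobase.

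**Figure D1:**
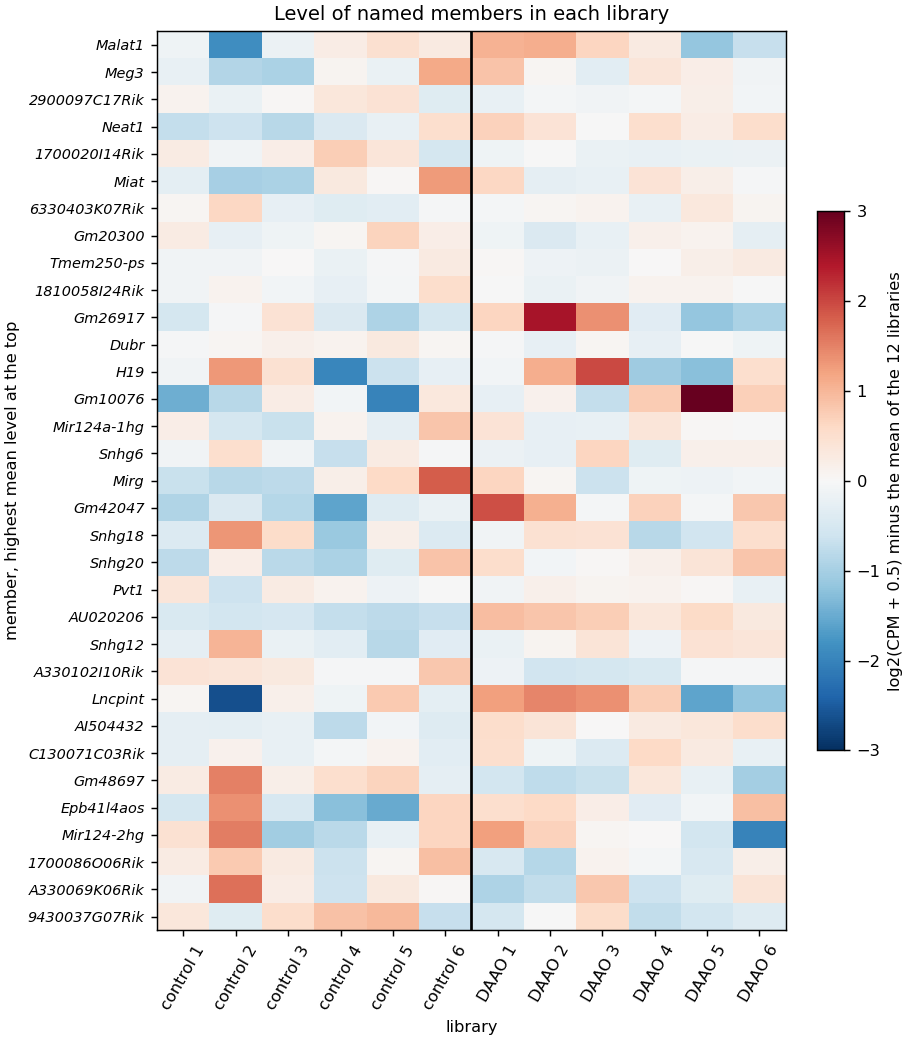
Level of named members (rows, highest mean at the top) in each of the 12 libraries (columns), as log2(CPM + 0.5) minus the row's mean, in colour from blue (low) to red (high). AU020206, Gm42047 and AI504432 are below their mean in the control columns, Meg3, Miat and Mirg are highest in control 6, and Malat1 and Lncpint are lowest in control 2.

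The comparison asked which of these transcripts differed between DAAO and control ganglia. Of the 146 members 2 passed an adjusted p of 0.05 (edgeR quasi-likelihood test, Benjamini-Hochberg over 17002 genes), both higher in DAAO ganglia: AU020206 and Gm42047. That is 1.37% of the members, beside 0.753% of all genes tested. At an unadjusted p of 0.05, 14 members passed (9.59%), 8 higher and 6 lower, beside 10.3% of all genes tested. The 6 control and 6 DAAO values did not overlap in 3 members (2.05%), all higher in DAAO, beside 1.44% of all genes tested. With counts this small, the members' shares lay near those of all genes. The median log2 fold change was 0.00 in the members, with quartiles of -0.23 and 0.21, and 0.00 over all genes tested, with quartiles of -0.17 and 0.20. Of the members 74 had a positive and 72 a negative log2 fold change, and 5 had an estimate of at least 2-fold (3.42%, beside 4.28% of all genes tested). Of the 481 lincRNA genes outside X and Y that were tested, abundant or not, the same 2 passed.

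**Figure D2:**
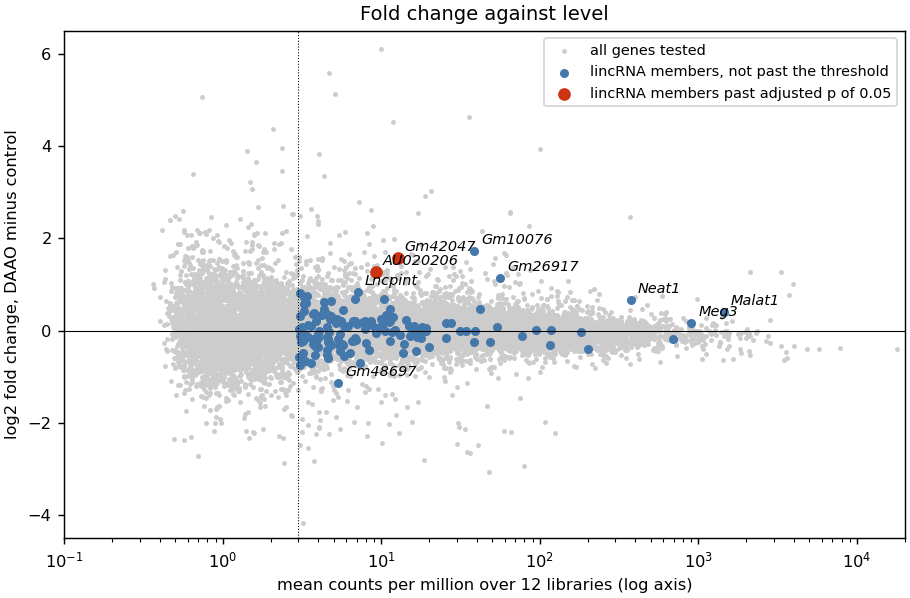
Log2 fold change (DAAO minus control, vertical axis) against mean CPM over 12 libraries (horizontal log axis) for all genes tested (grey) and the 146 members (blue, or red where the adjusted p was under 0.05). The members lie to the right of the dotted line at 3 CPM, and the 2 red points are Gm42047 and AU020206.

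AU020206 (ENSMUSG00000097415) was the member with the smallest p. The gene has 3 exons and lies at chr7:75769038-75782099 on the minus strand (GRCm38), with no tested gene overlapping it, and RefSeq lists it as a long noncoding RNA. Its level ran from 4.61 to 5.88 CPM in controls, with a median of 5.19, and from 10.3 to 16.1 CPM in DAAO libraries, with a median of 13.4. Every DAAO library was above every control library, and the controls lay close together. The mean rose from 5.25 ± 0.511 to 13.2 ± 2.38 CPM (SD, n = 6 each), a log2 fold change of 1.28 ± 0.18 (SE; edgeR adjusted p = 0.00167). The protein-coding genes within 100000 bases on either side did not pass: Akap13, a kinase-anchoring protein gene 14429 bases away, had a log2 fold change of 0.01 (edgeR adjusted p = 0.998), and Klhl25, a ubiquitin ligase adaptor gene, one of 0.33 (edgeR adjusted p = 0.601). Without the 5 libraries that held both Xist and Y-linked transcripts the log2 fold change was 1.29, with an adjusted p of 0.218 (edgeR, 4 control and 3 DAAO libraries).

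The promoter of AU020206 is shown because its transcript rose while its coding neighbours did not pass. RefSeq (GRCm38.p6) places it at chr7:75782071-75782370 on the minus strand, and the capitals mark the part after the RefSeq gene start:
AU020206: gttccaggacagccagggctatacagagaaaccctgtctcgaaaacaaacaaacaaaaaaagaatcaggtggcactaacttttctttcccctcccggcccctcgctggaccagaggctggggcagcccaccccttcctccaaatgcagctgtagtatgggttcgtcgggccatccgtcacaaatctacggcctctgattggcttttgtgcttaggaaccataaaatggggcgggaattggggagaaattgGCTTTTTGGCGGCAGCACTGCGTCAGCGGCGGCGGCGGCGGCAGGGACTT
The window had a GC content of 55.7%, beside a median of 52.7% in the 32851 RefSeq promoters of this length. It was searched on both strands for the letters of an AP-1 site (TGANTCA), a cyclic AMP response element (TGACGTCA) and an antioxidant response element core (TGACNNNGC), and held none. An AP-1 match followed by the letters GC can also be a match to the antioxidant core. These letters occur in 7.81%, 1.79% and 12.4% of all such promoters, and in 7.22%, 3.09% and 16.5% of the 97 promoters of the 78 members that could be matched. The 16 member promoters with the antioxidant core belonged to only 10 members, so some members count there more than once.

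Gm42047 (ENSMUSG00000110631, 4 exons, chr8:121833247-121841178, plus strand) was the other member that passed. Its level ran from 3.0 to 8.62 CPM in controls, with a median of 6.33, and from 9.55 to 39.8 CPM in DAAO libraries, with a median of 17.2. The groups did not overlap, but DAAO 1 alone was near 40 CPM and the lowest DAAO libraries were just above the highest control. The mean rose from 6.15 ± 2.05 to 19.2 ± 11.2 CPM (SD, n = 6 each), a log2 fold change of 1.58 ± 0.34 (SE; edgeR adjusted p = 0.0394). The gene starts 3678 bases from the start of Klhdc4, which is transcribed away from it. Klhdc4 had a log2 fold change of 0.15 (edgeR adjusted p = 0.796). Jph3, which encodes a neuronal junctophilin, and Slc7a5, which encodes an amino acid transporter, had log2 fold changes of 0.24 and -0.25 (edgeR adjusted p = 0.515 for each). The call was lost on leaving out control 1, 3, 4 or 5, or DAAO 1, 2, 4 or 6, with adjusted p from 0.0573 to 0.108, and without the 5 libraries with both Xist and Y-linked transcripts (log2 fold change 0.95, edgeR adjusted p = 0.954).

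AI504432, a lincRNA at chr3:107039504-107054347 on the plus strand, was the third member whose groups did not overlap. Its level ran from 3.6 to 6.18 CPM in controls (median 5.29) and from 6.68 to 9.73 CPM in DAAO libraries (median 8.56). The highest control, control 5, and the lowest DAAO library, DAAO 3, were close to each other. The log2 fold change was 0.69 ± 0.20 (SE; edgeR adjusted p = 0.158), and DESeq2 gave an adjusted p of 0.0349. The gene follows the potassium channel gene Kcna3 on the same strand at a gap of 1434 bases, and Kcna2, another potassium channel gene, lies 46799 bases away. Kcna3 was at 0.770 ± 0.965 CPM in controls and 1.14 ± 1.54 CPM in DAAO libraries (SD, n = 6 each). Kcna2, at 387 ± 103 and 336 ± 44.1 CPM, had a log2 fold change of -0.25 (edgeR adjusted p = 0.664).

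**Figure D3:**
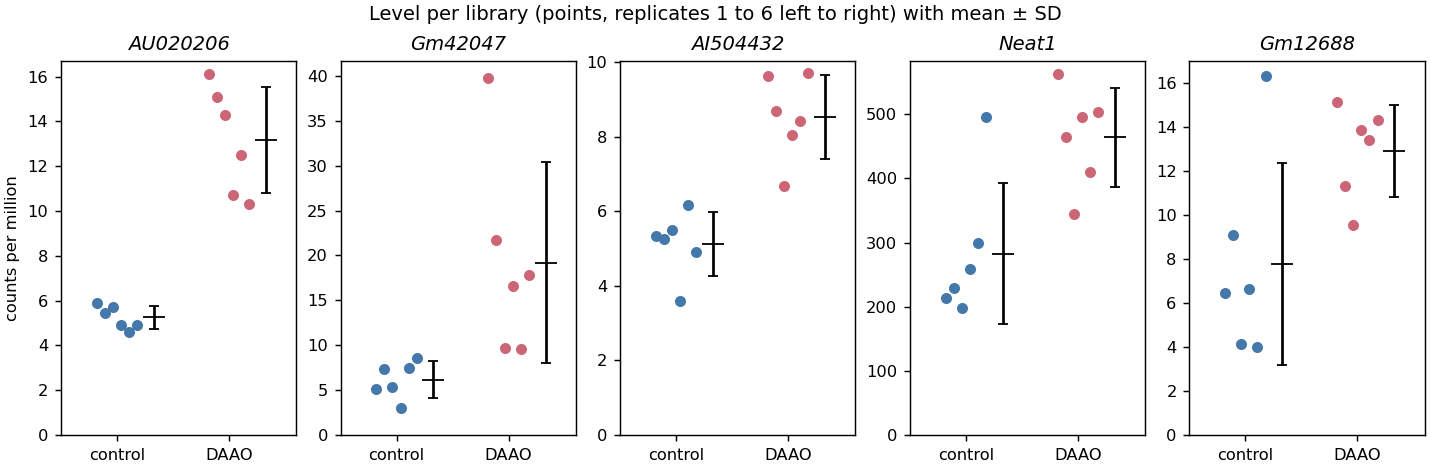
CPM per library (points) of 5 members in the control and DAAO groups, with the mean ± SD of 6 libraries in black, each panel on its own axis from 0. The groups are apart for AU020206, Gm42047 and AI504432, while control 6 stands among the DAAO libraries for Neat1 and above them for Gm12688.

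Markers of cell types were read in the same libraries, and few of them passed. Of 12 genes of non-myelinating and repair Schwann cells 3 rose (Sox2, Runx2 and Btc, edgeR), and 9 of the 12 estimates were positive and 3 negative. The list's summed level was 1547 to 2164 CPM in controls and 2005 to 2551 CPM in DAAO libraries. None of 11 macrophage genes passed, at a summed level of 51.2 to 392 CPM in controls and 171 to 696 CPM in DAAO libraries and a median log2 fold change of 0.92. None of 11 endothelial genes passed, at 174 to 265 and 155 to 305 CPM. In 4 further lists 0 genes passed, and the estimates leaned as follows. All 12 myelinating Schwann cell genes were negative (median log2 fold change -0.50), at 6460 to 22576 CPM in controls and 6761 to 8217 CPM in DAAO libraries. Of 6 satellite glia genes 5 were negative (median -0.46). Their summed level was 3524 to 6216 CPM in controls and 4979 to 6993 CPM in DAAO libraries. Most of that sum was Apoe, the only positive gene, with means of 2687 CPM in controls and 4750 CPM in DAAO libraries. Its log2 fold change was 0.77 (edgeR adjusted p = 0.0932). All 9 skeletal muscle genes tested were negative (median -2.47), at 14.4 to 2718 and 10.9 to 448 CPM, and 9 of 10 fibroblast genes were positive (median 0.37), at 734 to 3635 and 1689 to 3847 CPM. In the lists of oligodendrocytes and spinal cord (10 genes) and of erythrocytes (6 genes) 0 passed, with medians of -0.21 and -0.24. Of the 15 pan-neuronal genes 1, Snap25, which encodes a synaptic fusion protein, was lower. The part of these cells in the rise of AU020206 and Gm42047 was not tested. In bulk RNA, fewer cells of a type and less RNA per cell cannot be told apart.

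Of the roles, nuclear body RNAs held the member with the highest level. Malat1, which gathers in nuclear speckles, and Neat1, the scaffold of paraspeckles, are neighbours on chromosome 19, with a gap of 22036 bases, on the same strand. Miat forms nuclear bodies of its own in neurons. None of these 3 passed. Neat1 ran from 198 to 495 CPM in controls (median 244) and from 345 to 564 CPM in DAAO libraries (median 481). All DAAO libraries were above 5 of the 6 controls, and control 6 lay among the DAAO values. The log2 fold change was 0.66 ± 0.21 (SE; edgeR adjusted p = 0.201). Without control 6 it was 0.91, with an edgeR adjusted p of 0.00628. Control 6 stood out by its own Neat1 level, so that adjusted p is a description and not a call. With all libraries, limma-voom with sample weights gave a log2 fold change of 0.94 with an adjusted p of 0.00538. In the 7-library fit the log2 fold change of Neat1 was 0.39 (edgeR adjusted p = 0.9999).

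Malat1 spread over a wide range within both groups. It ran from 342 to 1733 CPM in controls (median 1305) and from 561 to 2672 CPM in DAAO libraries (median 1733). Control 2, DAAO 5 and DAAO 6 were the 3 lowest libraries, so that each group held both high and low values. The log2 fold change was 0.41 ± 0.42 (SE; edgeR adjusted p = 0.839). Its sign turned in the 7-library fit, at -0.13, and it was 0.22 without control 2, 0.25 without DAAO 1 and 0.24 without DAAO 2. Miat ran from 83.1 to 407 CPM in controls and from 138 to 258 CPM in DAAO libraries, with a log2 fold change of -0.03 ± 0.36 (SE; edgeR adjusted p = 0.995). Control 6 was its highest library and control 2 its lowest. The estimate was 0.41 without control 6 and -0.27 in the 7-library fit. Of the 13 paraspeckle protein genes 0 passed, with a median log2 fold change of 0.10. The smallest p-values among them were those of Rbm14 (0.45) and Nono (0.18). Of the 14 nuclear speckle protein genes 0 passed either, with a median of 0.04.

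Other transcripts followed Malat1 from library to library. Over all 12 libraries, on log2(CPM + 0.5), Lncpint had a Pearson r of 0.961 with Malat1 (permutation adjusted p = 0.00145 over 145 members compared, Spearman's rho 0.923, permutation adjusted p = 0.00435). Lncpint is a transcript induced by p53. 9530059O14Rik, a spliced transcript of 6 exons, had an r of 0.955 (permutation adjusted p = 0.00145, rho 0.944, permutation adjusted p = 0.00435). Gm16907 had an r of 0.852 (permutation adjusted p = 0.00918, rho 0.895, permutation adjusted p = 0.00967). No other member passed by Pearson's r. Lncpint was at 0.420 CPM in control 2, 1.42 CPM in DAAO 5 and 2.05 CPM in DAAO 6, and at 4.16 to 15.2 CPM in the other libraries. 9530059O14Rik was at 3.99, 5.11 and 13.6 CPM in those 3 libraries and at 19.5 to 46.4 CPM elsewhere. The 3 lowest libraries of Malat1, Lncpint and 9530059O14Rik were thus the same, 1 control and 2 DAAO libraries.

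Control 2 and DAAO 5 were the libraries farthest from the median of Malat1. Without them r was 0.890 for Lncpint, 0.911 for 9530059O14Rik and 0.786 for Gm16907. DAAO 6, also among the lowest libraries, was kept, so the relation without all of these low libraries was not tested. Within the 6 controls r was 0.939 for Lncpint (exact permutation p = 0.0514), 0.988 for 9530059O14Rik (exact permutation p = 0.00417) and 0.681 for Gm16907 (exact permutation p = 0.0958). Within the 6 DAAO libraries it was 0.977 (exact permutation p = 0.00417), 0.949 (exact permutation p = 0.00556) and 0.972 (exact permutation p = 0.00417). Not all members followed Malat1: 2900097C17Rik, the second most abundant per kilobase, stayed between 525 and 915 CPM in all libraries. An r of at least 0.9 with Malat1 was found for 2 members, 1.38% of those compared, and for 8 of all genes tested, 0.0471%.

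**Figure D4:**
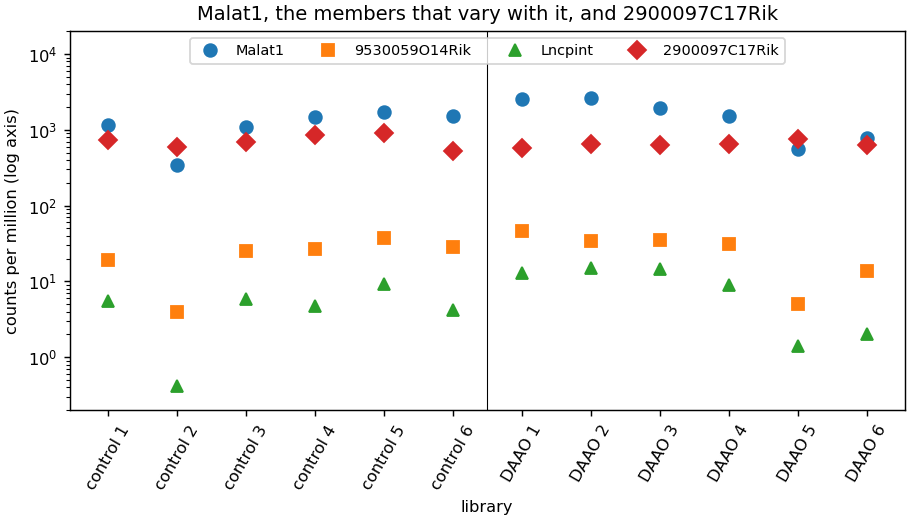
CPM (log axis) of Malat1, 9530059O14Rik, Lncpint and 2900097C17Rik in each library, with controls left of the line and DAAO libraries right of it. The first 3 are lowest in control 2, DAAO 5 and DAAO 6, where 2900097C17Rik stays between 594 and 762 CPM.

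Of the imprinted Dlk1-Dio3 region on chromosome 12, whose noncoding RNAs are expressed from the maternal chromosome, Meg3 and Mirg were members. Meg3 ran from 432 to 1820 CPM in controls (median 713) and from 667 to 1504 CPM in DAAO libraries (median 914). Control 6 was far above the other controls, and the groups overlapped (log2 fold change 0.16 ± 0.33, SE; edgeR adjusted p = 0.940). Without control 6 it was 0.57 (edgeR adjusted p = 0.314), and in the 7-library fit it was -0.14. Mirg, which holds a long cluster of microRNAs, ran from 6.46 to 42.8 CPM in controls and from 7.36 to 18.6 CPM in DAAO libraries. Its log2 fold change was -0.48 ± 0.45 (SE; edgeR adjusted p = 0.807) and 0.14 without control 6, the highest library. It was -1.11 in the 7-library fit. Of the 7 protein-coding genes of the region that were tested 0 passed, with a median log2 fold change of -0.07. Meg3 is known to bind Polycomb repressive complex 2, a repressive histone methyltransferase. Of its 10 genes 0 passed, with a median of 0.05.

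Members served as hosts of microRNAs, short RNAs that repress messages paired to their seed. In GRCm38 coordinates 11 members held 32 RefSeq microRNA hairpins on their own strand, which give 57 mature sequences with 49 distinct seeds. No RefSeq entry matched the hosts of miR-124 named below, so they are not in this count. Mirg held 14 hairpins and A230057D06Rik 7, those of the miR-344 family. The mature sequences below, from RefSeq, are shown because their hosts share a seed or because they are known from neurons. Capitals mark the seed, bases 2 to 8.
miR-9-5p (in C130071C03Rik and Gm3764): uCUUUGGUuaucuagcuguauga
miR-410-3p (in Mirg): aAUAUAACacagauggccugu
miR-344d-3p (in A230057D06Rik): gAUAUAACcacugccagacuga
miR-134-5p (in Mirg): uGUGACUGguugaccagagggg
miR-138-5p (in C78859): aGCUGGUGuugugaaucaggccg
let-7d-5p (in 6720427I07Rik): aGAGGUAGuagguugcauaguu
miR-191-5p (in 4833445I07Rik): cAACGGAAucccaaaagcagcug
miR-675-5p (in H19): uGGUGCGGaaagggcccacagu
The first is cut from 2 hosts on different chromosomes, and miR-410-3p and miR-344d-3p share a seed although they come from different hosts. The counts are those of host transcripts, so they say nothing on the level of the mature RNAs.

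No host passed in the comparison. Of the miR-9 hosts, C130071C03Rik ran from 5.22 to 7.35 CPM in controls and from 4.88 to 10.3 CPM in DAAO libraries (log2 fold change 0.22 ± 0.23, SE; edgeR adjusted p = 0.846). Gm3764 ran from 0 to 12.8 CPM in controls and from 0.811 to 9.72 CPM in DAAO libraries (0.37 ± 0.98, SE; edgeR adjusted p = 0.958). The hosts of the same microRNA thus differed in spread, and Gm3764 was highest in control 2. C78859, host of miR-138, ran from 18.1 to 92.2 CPM in controls and from 33.9 to 76.6 CPM in DAAO libraries (0.08 ± 0.32, SE; edgeR adjusted p = 0.973). 4833445I07Rik, host of miR-191 and miR-425, was at 2.18 ± 0.804 CPM in controls and 3.94 ± 2.41 CPM in DAAO libraries (SD, n = 6 each). It met the rule through the DAAO libraries, with DAAO 3 at 8.70 CPM, and its log2 fold change was 0.81 with that library and 0.40 without it. The hosts of miR-124, which neurons express strongly, were Mir124a-1hg, at 18.7 to 53.9 CPM in controls and 25.5 to 40.4 CPM in DAAO libraries, and Mir124-2hg, at 4.94 ± 3.80 and 4.39 ± 3.10 CPM (SD, n = 6 each). Their log2 fold changes were -0.01 and -0.24 (edgeR adjusted p = 0.997 and 0.952), and that of Mir124-2hg was 0.066 in the 7-library fit. Of 13 genes of the microRNA processing machinery 0 passed, with a median of 0.02.

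The snoRNA hosts among the members, whose introns are cut into guides for RNA modification, were Snhg6, Snhg12, Snhg18, Snhg20 and Epb41l4aos. None of the 5 passed, and their median log2 fold change was 0.16. Snhg20 ran from 5.12 to 19.3 CPM in controls (median 6.89) and from 9.88 to 18.96 CPM in DAAO libraries (median 12.8). Control 6 was its highest library (log2 fold change 0.46 ± 0.31, SE; edgeR adjusted p = 0.676), and without it the estimate was 0.82. Epb41l4aos had a log2 fold change of 0.25 ± 0.48 (SE; edgeR adjusted p = 0.935). In the 7-library fit the estimates were 0.32 for Snhg20 and 0.36 for Epb41l4aos. Without controls 2 and 6 they were 1.10 (edgeR adjusted p = 0.0143) and 1.38 (edgeR adjusted p = 0.0460). In that fit 7 members and 648 genes in all passed. Controls 2 and 6 stood apart by their levels, and leaving out such libraries can narrow the spread of their group. Adjusted p-values of that fit, here and below, and those of fits without control 6 are therefore a description and not calls.

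Of 6 conserved or well-studied members none passed, with a median log2 fold change of -0.12. 2900097C17Rik, the mouse Norad gene, makes a cytoplasmic transcript that binds Pumilio proteins. It had 721 ± 151 CPM in controls and 653 ± 59.1 CPM in DAAO libraries (SD, n = 6 each), a log2 fold change of -0.18 ± 0.14 (SE; edgeR adjusted p = 0.723). 1700020I14Rik, also called Cyrano, directs the decay of miR-7. It ran from 136 to 329 CPM in controls (median 228) and from 168 to 194 CPM in DAAO libraries (median 173). All DAAO libraries were below the control median, in a narrow range, and control 6 was the lowest of all. The log2 fold change was -0.40 ± 0.16 (SE; edgeR adjusted p = 0.365), and without controls 2 and 6 it was -0.59 (edgeR adjusted p = 0.0111). Dubr, a transcript known from muscle differentiation, had a log2 fold change of -0.25 ± 0.10 (SE; edgeR adjusted p = 0.393). Pvt1, the neighbour of Myc, had one of -0.05 ± 0.19 (SE; edgeR adjusted p = 0.972), and Lncpint one of 0.83 ± 0.63 (SE; edgeR adjusted p = 0.736), or 0.45 in the 7-library fit. H19, an imprinted transcript of growing tissues, ran from 7.79 to 79.3 CPM in controls and from 13.1 to 127 CPM in DAAO libraries (log2 fold change 0.46 ± 0.64, SE; edgeR adjusted p = 0.898). The estimate turned to -0.10 without DAAO 3, and was 0.91 without control 2, 0.25 without control 4 and 1.03 in the 7-library fit. Its highest libraries, DAAO 3 and control 2, were also the highest for the summed level of the fibroblast list, at 3847 and 3635 CPM. The same libraries were highest for the erythrocyte list, at 401 and 514 CPM. The part of these cells in the level of H19 was not tested.

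**Figure D5:**
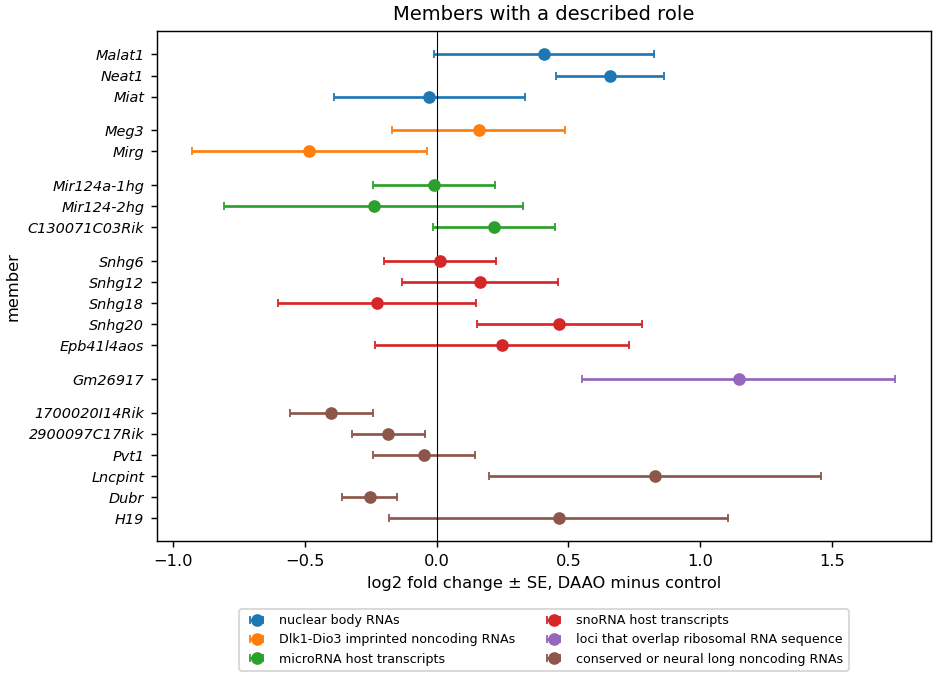
Log2 fold change (DAAO minus control) with its SE for the 20 members with a described role, coloured by role. Neat1 at 0.66 is above 0 by more than its SE, 1700020I14Rik at -0.40 is below 0 by more than its SE, and none of the 20 passed an adjusted p of 0.05.

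The largest estimates were not the firmest. Gm10076, a single-exon gene of 384 bases that RefSeq lists as a pseudogene, had a log2 fold change of 1.73 ± 0.74 (SE; edgeR adjusted p = 0.460). DAAO 5 held 219 CPM, while the other DAAO libraries lay between 14.1 and 40.5 CPM and the controls between 5.52 and 29.3 CPM. Without DAAO 5 the log2 fold change was 0.60. Gm26917, a locus that overlaps ribosomal RNA sequence, had 1.15 ± 0.60 (SE; edgeR adjusted p = 0.559). DAAO 2 held 227 CPM and DAAO 3 held 106 CPM, while DAAO 5 and DAAO 6 held 17.96 and 20.9 CPM, below every control. Without DAAO 2 the log2 fold change was 0.47, and in the 7-library fit it was 0.61. Reads of near-identical copies may be split between such loci, so both levels are uncertain.

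The largest negative estimate was that of Gm48697, from 3.78 to 14.1 CPM in controls (median 6.27) to between 2.05 and 6.00 CPM in DAAO libraries (median 2.89). All 6 DAAO libraries were below the control median, but the groups overlapped (log2 fold change -1.13 ± 0.34, SE; edgeR adjusted p = 0.180). In the 7-library fit the estimate was -0.50 (edgeR adjusted p = 0.9999). A330102I10Rik followed in p, at 8.95 ± 2.14 and 5.72 ± 1.08 CPM (SD, n = 6 each; log2 fold change -0.70 ± 0.22, SE; edgeR adjusted p = 0.216). The other large negative estimates were -0.75 for 9430037G07Rik, -0.70 for 1700086O06Rik and -0.67 for A330069K06Rik, with edgeR adjusted p of 0.539, 0.514 and 0.696. A330069K06Rik had -0.15 without control 2, -1.02 without DAAO 3 and 0.046 in the 7-library fit, and 1700086O06Rik had -0.45 in the latter.

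Position next to a coding gene was common. Of the members 20 overlapped a tested protein-coding gene, 58 others lay within 10000 bases of one, and 23 lay beyond 100000 bases. The nearest coding gene passed for 2 of the 146 members, while 0.753% of all genes tested passed. These members, Gm12688 and D730003I15Rik, were chosen here after their neighbours' values were seen. Gm12688 (chr4:99653607-99654983, minus strand) starts 1316 bases from the start of Foxd3, a transcription factor gene of the neural crest and its glia, and is transcribed away from it. Foxd3 ran from 16.9 to 28.7 CPM in controls and from 35.5 to 55.2 CPM in DAAO libraries, with no overlap (log2 fold change 1.005 ± 0.17, SE; edgeR adjusted p = 0.00601). Gm12688 ran from 4.0 to 16.3 CPM in controls (median 6.54) and from 9.54 to 15.1 CPM in DAAO libraries (median 13.6). All DAAO libraries were above 5 of the 6 controls, and control 6 was the highest library. The log2 fold change was 0.68 ± 0.31 (SE; edgeR adjusted p = 0.462). It was 1.04 without control 6 (edgeR adjusted p = 0.0617), 1.25 without controls 2 and 6 (edgeR adjusted p = 0.00778) and 1.18 with limma-voom (adjusted p = 0.0161). Without control 2 alone it was 0.74, without DAAO 5 it was 0.66, and in the 7-library fit it was 0.63 (edgeR adjusted p = 0.9999).

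D730003I15Rik (chr1:191224454-191226140, plus strand) starts 6415 bases from the start of Atf3, a transcription factor gene that nerve injury induces, and is also transcribed away from it. Atf3 rose from 15.4 ± 4.70 to 70.9 ± 19.8 CPM (SD, n = 6 each; log2 fold change 2.16 ± 0.23, SE; edgeR adjusted p = 0.000235). D730003I15Rik ran from 2.14 to 6.30 CPM in controls (median 3.30) and from 2.87 to 6.96 CPM in DAAO libraries (median 4.30). The groups overlapped over most of their range (log2 fold change 0.33 ± 0.32, SE; edgeR adjusted p = 0.825), and the 7-library fit gave 0.58. Gm37168, another member, 49139 bases from Atf3, had a log2 fold change of -0.18 ± 0.52 (SE; edgeR adjusted p = 0.960), and -0.95 in the 7-library fit. The promoter of D730003I15Rik is shown because, beside a coding neighbour that rose, it holds the letters of an AP-1 site. The window is chr1:191224204-191224503 on the plus strand (RefSeq, GRCm38.p6), and capitals mark the match, which begins at position -11 from the gene start:
D730003I15Rik: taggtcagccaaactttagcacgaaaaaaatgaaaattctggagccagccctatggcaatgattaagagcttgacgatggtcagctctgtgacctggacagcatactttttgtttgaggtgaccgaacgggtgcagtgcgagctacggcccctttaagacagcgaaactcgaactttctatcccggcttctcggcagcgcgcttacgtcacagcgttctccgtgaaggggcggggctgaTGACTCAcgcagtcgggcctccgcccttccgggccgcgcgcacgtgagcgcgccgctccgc
A match of letters is a description and not a binding site. D730003I15Rik was 1 of 7 matched members with this match.

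The median spread of the members was smaller among DAAO libraries than among controls, a description with no test. For the 44 members between 10 and 100 CPM, the median over genes of the SD of the log2 level was 0.46 in controls and 0.29 in DAAO libraries, and for protein-coding genes at that level it was 0.33 and 0.21. For the 94 members between 3 and 10 CPM it was 0.59 and 0.39, beside 0.58 and 0.42 for protein-coding genes. Above 10 CPM the members' median spread was thus larger than that of coding genes in both groups, and below 10 CPM it was close to it.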

How the data were processed

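Total RNA of dorsal root ganglia was sequenced in 12 libraries. The deposited table holds whole-number read counts per gene, not normalised, with gene lengths in bases. Per the submitters' processing notes, the tools were HISAT2 2.0.5, FastQC and DESeq2 1.20.0, with GRCm38 and mm10 as builds. The counter, its use of strand and the release of the annotation are not given in the sources, so where genes overlap on opposite strands their reads may be mixed. Members and gene lists were chosen with earlier results of these data known.

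Groups were taken from the labels. Of 54532 genes, 17002 passed edgeR's filterByExpr (minimum count 10, minimum total count 15), among them all 146 members. After TMM scaling, DAAO was compared with control in edgeR 4.0.16 under R 4.3.3 by the two-sided quasi-likelihood test with robust dispersions. P-values were adjusted by Benjamini-Hochberg over the 17002 genes, at a threshold of 0.05. The method was tested on simulated data. CPM printed are scaled by library totals. The SE is the size of the log2 fold change over the root of the F statistic. Members named were those that passed or whose groups did not overlap, the 10 highest in CPM and 5 per kilobase, those in role lists, the 5 largest estimates in each direction and 3 at the threshold; 10 others were added after their values were seen, beside Gm16907 (for its relation with Malat1) and A230057D06Rik (for its microRNAs). The motif letters, the miRNA hairpins and the relations with Malat1 (100000 permutations) were computed from the same table and RefSeq. Alternatives were other scalings, DESeq2 1.42.0, limma-voom (limma 3.58.1), other filters, a replicate block and each library left out. No 2 of the 12 libraries agreed within sampling noise (smallest chi-square per degree of freedom 19.5 over 66 pairs).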

Additional observations from a re-analysis of the deposited data

Results flagged for a closer look

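In 46 named members, each group of 6 libraries was searched for 1 library whose gap to its nearest neighbour divided by the group's range exceeded Dixon's 95% critical value. Of 92 groups 14 had such a library (15.2%). That critical value holds for normally distributed values of genes not chosen by them. CPM were used here, and some members were named for their estimates or after their values were seen, so no chance share is given. Genes of 1 library are also not independent of each other.

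Control 6 stood above the other controls for Meg3 at 1820 CPM, Neat1 at 495 CPM, Miat at 407 CPM, Mirg at 42.8 CPM and 6720427I07Rik at 7.48 CPM. Control 2 stood above the other controls for 6330403K07Rik at 179 CPM, Snhg12 at 16.1 CPM, Gm3764 at 12.8 CPM, A330069K06Rik at 10.03 CPM and D730003I15Rik at 6.30 CPM. Control 1 stood above the others for Gm9866 at 13.2 CPM. In the DAAO group, DAAO 5 stood above for Gm10076 at 219 CPM, and DAAO 3 for D730003I15Rik at 6.96 CPM and 4833445I07Rik at 8.70 CPM. Control 6 had the smallest library, at 13227518 counts. Control 2 had the highest summed level of the myelinating Schwann cell list, at 22576 CPM against 6460 to 10157 CPM in the other controls. For the list of oligodendrocytes and spinal cord, control 2 was also highest, at 6619 CPM against 786 to 2385 CPM in the other controls. Their part in these levels was not tested.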

How the results depend on the processing

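The 2 members that passed and the 128 genes that passed in all were recounted. The counts of genes were 373 with DESeq2, 307 with limma-voom, 226 at an adjusted p of 0.10, and 61 to 322 on leaving out each library in turn. The members that passed were 3 with DESeq2, 4 with limma-voom, 1 among members of at least 10 CPM, and 1 to 3 on leaving out each library. Without controls 2 and 6, 7 members and 648 genes passed. Nothing in the labels sets these 2 controls apart, and they stood out by their values, so these counts are a description. Of further alternatives chosen after seeing the data, the fit without the 5 libraries with both Xist and Y-linked transcripts gave 0 members and 4 genes (edgeR). A term for the Xist level gave 2 and 198. The first of these compared only 4 control with 3 DAAO libraries, and the part of the smaller sample in its counts was not tested.

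Among 46 named members and 24 settings, 11 of 1103 values changed sign and either involved a call or moved by more than 1 SE; 21 members changed sign in some setting. Without control 6 the log2 fold changes of Miat, Mir124a-1hg and Mirg were 0.41, 0.23 and 0.14, and with limma-voom those of Miat and Mirg were 0.39 and 0.24. Without controls 2 and 6 those of 1810058I24Rik, Mirg and Mir124-2hg were 0.075, 0.023 and 0.53. Without control 2 that of Snhg18 was 0.17. Leaving out each library in turn, the range was -0.18 to 0.41 for Miat, -0.13 to 0.23 for Mir124a-1hg, -0.65 to 0.14 for Mirg and -0.40 to 0.17 for Snhg18. Without the 5 libraries those of Malat1 and A330069K06Rik were -0.13 and 0.046. The cause was not tested.

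Same-numbered libraries had correlations of their deviations from -0.08 to 0.21, not all above 0.1, so the numbers were not taken to pair them; for 3 of 6 numbers the best match was the library of the same number. With a replicate block 2 members and 187 genes passed.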
